A study of Mus musculus with 8 samples.

Results

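Sterol efflux was followed through 5 genes in mouse livers with a knockout of Huwe1. The genes are Abca1, Abcg1, Abcg5, Abcg8 and Mylip, and all 5 were found by symbol among the 16640 genes of the authors' deposited table. The knockout livers came from 4 Huwe1_LKO mice, in which Huwe1, the gene of a HECT-type ubiquitin ligase, was knocked out in the liver only. They were compared with 4 WT livers. All 8 mice were 1 year old and had eaten the same chow without restriction, and RNA of whole liver was sequenced in bulk. The sources used here do not give the driver of the deletion, the deleted exons or the sex of the mice. By its title, the series asks how hepatic Huwe1 loss acts on fatty liver disease and lipid metabolism.

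Cells shed surplus cholesterol through ATP-binding cassette (ABC) transporters. ABCA1 loads cholesterol and phospholipid onto apolipoprotein A-I to start a high-density lipoprotein (HDL) particle, and ABCG1 passes cholesterol to particles already formed. ABCG5 and ABCG8 work only as a pair, and in hepatocytes they move sterols into bile. MYLIP, also called IDOL, is a RING-type ubiquitin ligase that sends lipoprotein receptors to the lysosome. All 5 genes are known targets of the liver X receptors (LXRs), nuclear receptors that sense oxysterols and bind DNA as a pair with a retinoid X receptor (RXR). In cultured cells HUWE1 itself has been reported to promote ubiquitination of the ABCG1 protein. The values below are of RNA, and no protein was measured.

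LXR and RXR bind a DR4 element, a repeat of the hexamer AGGTCA with 4 bases between the copies. The 250 bases before the Abca1 start site are shown because they hold such an element beside other known motifs (RefSeq, GRCm38.p6, minus strand, chr4:53159896-53160145). Capitals mark, from the left, the E-box CACGTG, the hexamers of the DR4 match and a TATAAA box, and no 2 of them overlap.

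Abca1 upstream: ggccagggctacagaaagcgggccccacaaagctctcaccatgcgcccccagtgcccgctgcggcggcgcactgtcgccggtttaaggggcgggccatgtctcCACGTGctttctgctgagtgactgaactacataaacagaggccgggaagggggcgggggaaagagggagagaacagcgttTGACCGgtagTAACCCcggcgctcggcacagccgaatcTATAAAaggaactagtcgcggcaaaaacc

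The search covered both strands and let up to 3 of the 12 letters of the paired AGGTCA hexamers differ, with any 4 bases between them. At that tolerance 18.5% of 32851 upstream windows of 250 bases held a match, CACGTG stood in 6.02% of them and TATAAA in 12.4%. The letters of the Abca1 match were much rarer. Its pair of hexamers, with any 4 bases between, stood in 3 windows, those of Abca1, of the fatty acid synthase gene Fasn and of Srebf1, the gene of the lipogenic factor SREBP-1. The sites of these 3 genes are given 5′ to 3′ with the hexamers in capitals.

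Abca1 site: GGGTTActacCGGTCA
Fasn site: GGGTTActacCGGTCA
Srebf1 site: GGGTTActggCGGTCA

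The Abca1 site lies at chr4:53159947-53159962, 67 to 52 bases before the start. The Fasn site (chr11:120824757-120824772) has the same 16 bases, found in 2 of the 32851 windows, and the Srebf1 site (chr11:60210638-60210653) differs from them in 2 bases of the spacer. This comparison was chosen after the values were seen. Abca1 had a deposited value of 1866 in Huwe1_LKO and 1976 in WT. Fasn fell to 7292 in Huwe1_LKO, against 33089 in WT, in the authors' deposited table. Srebf1 fell to 5781 in Huwe1_LKO, against 10645 in WT, in the same deposited table. The deposited log2 fold changes were -0.08 for Abca1, -2.18 for Fasn and -0.88 for Srebf1, and the 95% interval of Abca1 (-0.30 to 0.13) overlaps neither that of Fasn (-2.68 to -1.68) nor that of Srebf1 (-1.32 to -0.44). A difference between genes could not be tested without values per liver. A match shows the letters, not that a receptor was bound.

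Abcg5 and Abcg8 lie head to head on chromosome 17 (GRCm38.p6), Abcg5 at 84658174 to 84683011 on the minus strand and Abcg8 at 84676302 to 84700333 on the plus strand. The 109 bases between their main start sites are shown whole, since both genes are transcribed outward from them (plus strand, chr17:84683012-84683120). Capitals mark 2 copies of GATAA, the core of a GATA factor site, and 1 TATAAA, all read on the minus strand and none overlapping another.

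Abcg5-Abcg8 interval: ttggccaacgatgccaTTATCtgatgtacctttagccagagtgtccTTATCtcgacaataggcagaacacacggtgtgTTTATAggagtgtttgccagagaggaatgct

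Of the 109 bases before each of 32851 start sites, 9.36% held a GATAA on either strand and 5.90% a TATAAA. No DR4 match within 3 letters lies in this interval, and 7.77% of windows of that length hold one.

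**Figure D1:**
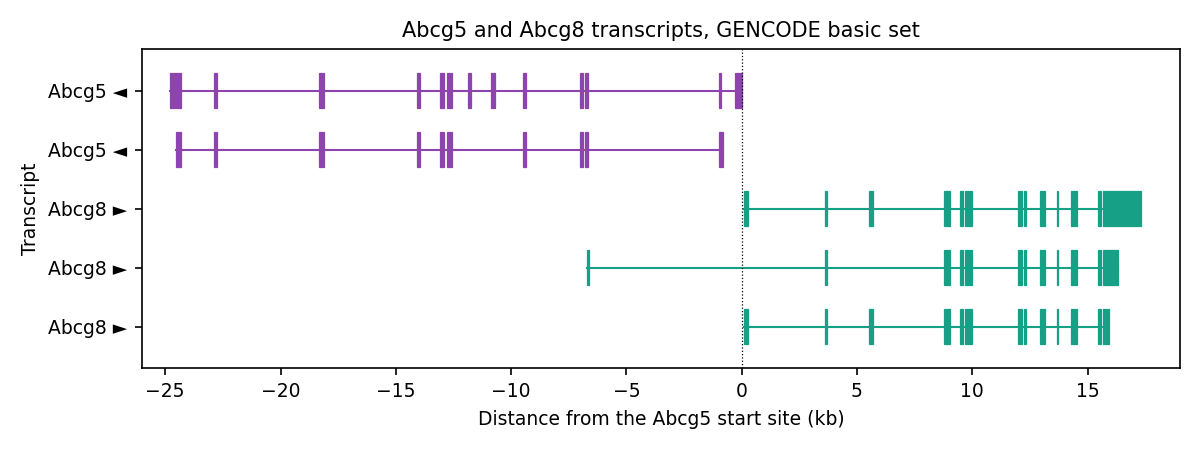
Transcripts of Abcg5 (purple, 2 transcripts, leftward) and Abcg8 (green, 3 transcripts, rightward) in the GENCODE basic set, with exons as boxes and distance from the Abcg5 start site in kb on the x axis. The main starts stand 109 bases apart, and 1 Abcg8 transcript starts inside Abcg5.

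The sources used here do not say whether counting used the strand. An Abcg8 transcript that starts within Abcg5 gives the pair 40 shared exonic bases on opposite strands, 1.65% of the exonic bases of Abcg5 and 1.07% of those of Abcg8. Reads from that stretch could have been given to either gene. Exons of Abca1, Abcg1 and Mylip overlap no other gene of the GENCODE basic set.

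None of the 5 members passed the authors' DESeq2 test at an adjusted p under 0.05, the threshold for every call here. Of all deposited genes, 9.97% passed, 734 higher (4.41%) and 925 lower (5.56%) in Huwe1_LKO. Among the 8793 genes with a mean value of 100 or more, as all members have, 15.0% passed. At an unadjusted p under 0.05 there was 1 member, Abcg5, against 20.5% of all genes. With 5 members, none called is near that background and says nothing particular about them. The median deposited log2 fold change was 0.02 over the members and 0.02 over all genes.

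Each level is the authors' group value, in normalized reads. No SD is given, since levels of single livers were not analysed here. Errors are standard errors of the log2 fold change as implied by the deposited p, and the spread among the 4 livers of a group, which may be partly technical, enters only there. As the check of the deletion, Huwe1 had a deposited value of 1784 in Huwe1_LKO and 2666 in WT, so 66.9% of the WT level was left (log2 fold change -0.58, adjusted p = 0.000425). In whole liver, fewer cells of a type and less RNA per cell cannot be told apart.

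Abcg5 (Entrez ID 27409), one subunit of the biliary sterol pump, had a deposited value of 2072 in Huwe1_LKO and 1573 in WT. On the log2 scale this was 0.40 (implied standard error 0.16), a fold of 1.32 with a 95% interval of 1.06 to 1.64. The unadjusted p of DESeq2 was 0.0147 and the adjusted p was 0.107, so Abcg5 was not called. This call depended on the centring. When the 2080 genes of highest mean value had their median set to 0, Abcg5 passed (log2 fold change 0.48, adjusted p = 0.0346), and all genes then counted 1168 higher and 625 lower. It also passed once the median of genes of like length and level was subtracted (0.52, adjusted p = 0.0216), but not when centred on the median of all genes (0.38, adjusted p = 0.135).

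Abcg8 (Entrez ID 67470), the other subunit, had a deposited value of 1865 in Huwe1_LKO and 1841 in WT. Its deposited log2 fold change of 0.02 turned to -0.00165 when centred on the median of all genes. The implied standard error was 0.15 and the adjusted p was 0.975, and the interval ran from 0.823-fold to 1.25-fold. The deposited log2 fold changes of the 2 subunits differed by 0.38, and their intervals overlap. The difference itself could not be tested without values per liver.

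Abca1 (Entrez ID 11303; chromosome 4, 53030789 to 53159988) had the narrowest error of the members. Its fold of 0.944 had a 95% interval of 0.814 to 1.10, and the deposited adjusted p was 0.80. From its implied standard error of 0.11, a log2 fold change of 0.31 or more in size, a fold of 1.24, would have passed. For a change smaller than that, the deposited test gives no call.

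Abcg1 (Entrez ID 11307; chromosome 17, 31057694 to 31117984) was low in whole liver, with a deposited value of 125 in Huwe1_LKO and 115 in WT. The deposited log2 fold change was 0.12, with the widest implied standard error of the 5 (0.30) and an adjusted p of 0.887. The interval reached from 0.726-fold to 1.63-fold, and a fold of 1.78 would have been needed for a call. A fold of 1.32, as Abcg5 had, would not have been called in Abcg1 at this precision.

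Mylip (Entrez ID 218203; chromosome 13, 45389742 to 45411940) had a deposited value of 104 in Huwe1_LKO and 118 in WT. The deposited log2 fold change was -0.19 (implied standard error 0.22, adjusted p = 0.743), with an interval of 0.655-fold to 1.18-fold. A fold of 1.52 would have passed. Abcg1 and Mylip lay near the middle of the table by mean value, at percentiles 49.6 and 48.6, and the other members at 92.6 to 93.0.

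**Figure D2:**
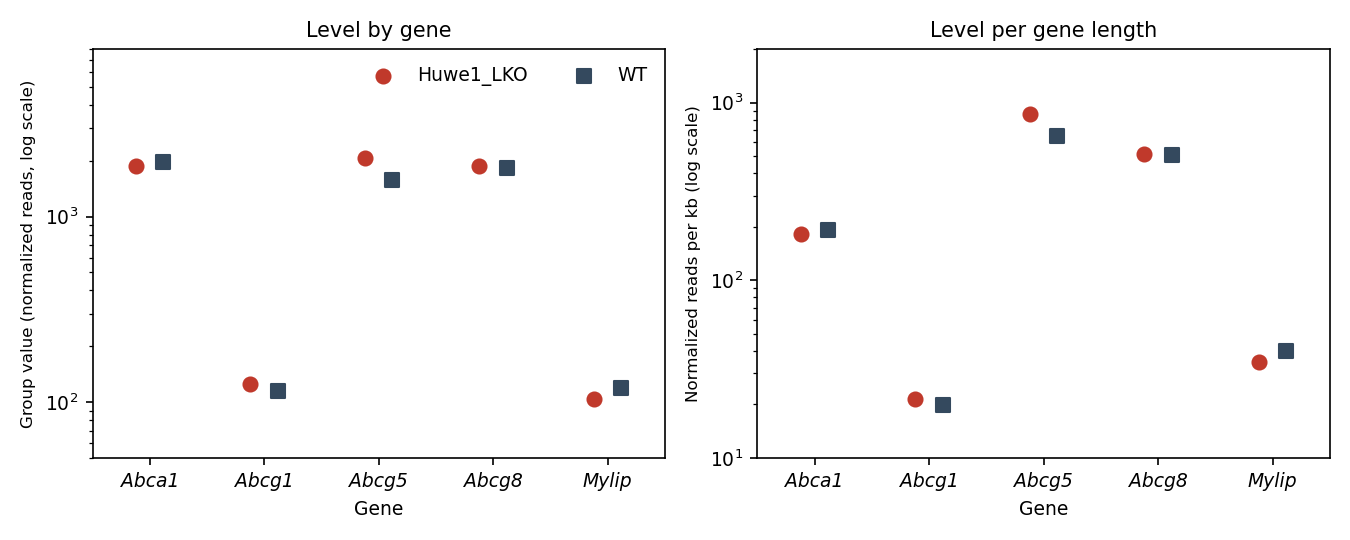
Deposited group values of the 5 genes in Huwe1_LKO (red circles, left) and WT (dark squares, right), as normalized reads in the left panel and per kb of gene length in the right panel, both on log scales, 1 point per gene and group. Abcg5 shows the widest gap, 2072 in Huwe1_LKO against 1573 in WT, and Abcg1 and Mylip lie far below the other genes in both groups.

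Per kb of the gene length listed in the deposited table, Abcg5 stood highest, at 859 normalized reads per kb in Huwe1_LKO and 653 in WT. On the same deposited scale Abcg8 had 513 in Huwe1_LKO and 507 in WT, and Abca1 had 182 in Huwe1_LKO and 193 in WT. Far lower lay Mylip, with 34.9 in Huwe1_LKO and 39.7 in WT, and Abcg1, with 21.5 in Huwe1_LKO and 19.8 in WT, from the deposited values. The order of these levels was the same in both groups. Whether neighbours in that order differ beyond the spread among livers could not be tested from group values.

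Other genes with nearly the same pair of group values were found by distance on the log2 scale, over those 2 values alone. For Abca1 these were Mrfap1 and 9530068E07Rik, for Abcg1 Aifm3 and Lysmd4, for Abcg8 Psmb4 and Atxn2l, and for Mylip Tgfbr3l and 2410131K14Rik, at distances of 0.00766 to 0.0236. Abcg5 had no gene so close. Nearest to it were Plec at 0.0578 and Srsf6 at 0.0745, and Plec, with a deposited log2 fold change of 0.38, was called higher (adjusted p = 0.00316). A pair of values cannot separate likeness from coincidence.

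Some genomic neighbours of the members passed, as did 9.97% of all genes. Abca1 lies between Nipsnap3b, 8728 bases away, and the choline transporter gene Slc44a1, 280398 bases away. Both fell, with deposited log2 fold changes of -0.38 and -0.83 (adjusted p = 0.0054 and 0.000455). The call of Nipsnap3b was lost once the trend with length and level was removed (adjusted p = 0.0603). The gene Tff3, encoding a trefoil factor, which lies 7321 bases beyond Abcg1, rose to 165 in Huwe1_LKO, against 12.5 in WT, in the deposited table (adjusted p = 2.08e-14). On the other side Umodl1 had deposited values under 1 in both groups. The outer neighbours of the Abcg5-Abcg8 pair, Dync2li1 and Lrpprc, and those of Mylip, Dtnbp1 and Gmpr, were not called in the deposited table, with log2 fold changes of -0.13, -0.26, -0.24 and -0.33.

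The receptors that drive these genes changed in part. Of 13 genes of LXRs, RXRs and their cofactors, 2 rose, 2 fell and 9 were not called by the authors' DESeq2 test. Among all genes 4.41% rose and 5.56% fell. The median of the 13 was 0.14 on the deposited log2 scale. Nr1h3, which encodes LXR-alpha, the main LXR of liver, fell to 1314 in Huwe1_LKO, against 1657 in WT, as deposited. This was -0.34 on the log2 scale, with an adjusted p of 0.00863 in the deposited table. That call was lost when centred on the most abundant eighth of genes (-0.25, adjusted p = 0.0683) and once the trend with length and level was removed (-0.21, adjusted p = 0.177). Rxrg, the gene of RXR-gamma, fell to 46.6 in Huwe1_LKO, against 111 in WT (-1.25 on the deposited log2 scale, adjusted p = 6.5e-05). Rxra, the most abundant RXR gene here by deposited value per kb, had a log2 fold change of 0.03, and Nr1h2, which encodes LXR-beta, of 0.16, and neither was called. The coactivator gene Ep300 rose, at 0.45 on the deposited log2 scale (adjusted p = 0.00249).

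Oxysterols are the ligands of these receptors, and genes that make or clear them fell in part. By the authors' DESeq2 test 4 of 9 such genes fell and 0 rose, beside 5.56% and 4.41% of all genes. The deposited median of the 9 was -0.08 on the log2 scale. At an unadjusted p under 0.05, 1 of the 9 was higher and 4 were lower, beside 20.5% of all genes in either direction. Cyp27a1, which makes 27-hydroxycholesterol, fell to 4252 in Huwe1_LKO, against 8076 in WT (deposited adjusted p = 6.7e-10). Cyp46a1, the cholesterol 24-hydroxylase known from brain, fell to 95.9 in Huwe1_LKO, against 254 in WT, in the deposited table (adjusted p = 0.00242). Hsd3b7, a bile acid enzyme that acts on oxysterols, fell by 0.45 on the deposited log2 scale (adjusted p = 0.032). It lost its call when centred on the most abundant eighth (adjusted p = 0.0987) and with the trend removed (adjusted p = 0.183). Cyp7b1, which clears oxysterols, was not called, at 0.59 on the deposited log2 scale (adjusted p = 0.12), but passed as higher with the trend removed (0.72, adjusted p = 0.0449). Oxysterols themselves were not measured.

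Other LXR targets divided. Of 21 listed, 9 fell and 0 rose in the authors' DESeq2 result, beside 5.56% and 4.41% of all genes. Among genes with a mean value of 100 or more, 15.0% were called in either direction. An unadjusted p under 0.05 would give 11 lower and 0 higher, beside 20.5% of all genes in either direction. The deposited median of the 21 was -0.28 on the log2 scale. Of the 9, 5 belong to fat synthesis or act on it: Srebf1, Fasn, Scd1, the ChREBP gene Mlxipl and the lipid droplet protein gene Pnpla3. The rest included Pltp, which moves phospholipid between lipoproteins, Apoc2, an activator of lipoprotein lipase, and Tmem135. Pltp fell most among those outside fat synthesis, to 506 in Huwe1_LKO, against 4104 in WT, 8.11-fold lower in the deposited table (adjusted p = 4.67e-51). Mlxipl and Apoc2 lost their calls when centred on the most abundant eighth (adjusted p = 0.0696 and 0.0691) and with the trend removed (adjusted p = 0.0852 and 0.0709). Many of the fat synthesis genes are also direct targets of SREBP-1 and ChREBP.

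The other 12 listed LXR targets were not called, like the 5 members. They included Apoe (-0.21), Apoc1 (-0.02), Lpcat3 (-0.28), a phospholipid remodelling enzyme, and Cyp7a1 (0.22), which encodes the enzyme that starts bile acid synthesis, as deposited log2 fold changes. Of 14 listed targets with an upstream window, 4 held a DR4 match, and 3 of these (Srebf1, Fasn and Pnpla3) fell while Arl4c, a small GTPase gene, was not called (0.29). Of the 10 with no match, 4 fell as well (Pltp, Tmem135, Apoc2 and Mlxipl), and 18.5% of all upstream windows held a match. Whether the members differ as a group from the other LXR targets was not tested.

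**Figure D3:**
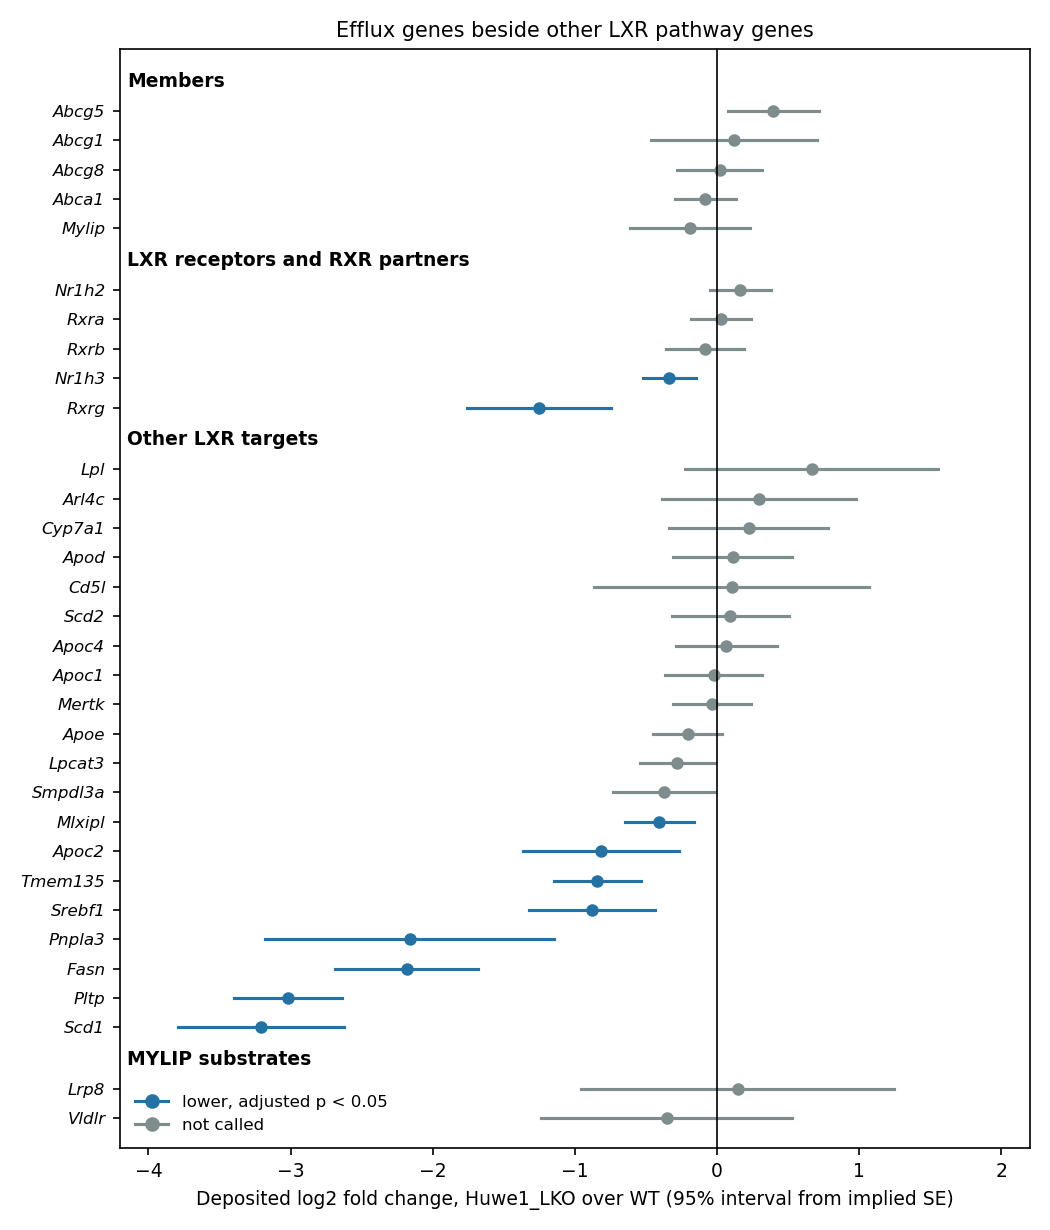
Deposited log2 fold change of Huwe1_LKO over WT on the x axis for the members, the LXR and RXR genes, other LXR targets and MYLIP substrates on the y axis. Points are fold changes, bars are 95% intervals from the implied standard error, and blue marks genes called lower. No member is blue, while Scd1, Pltp, Fasn, Pnpla3 and Srebf1 are among the LXR targets that are.

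**Figure D4:**
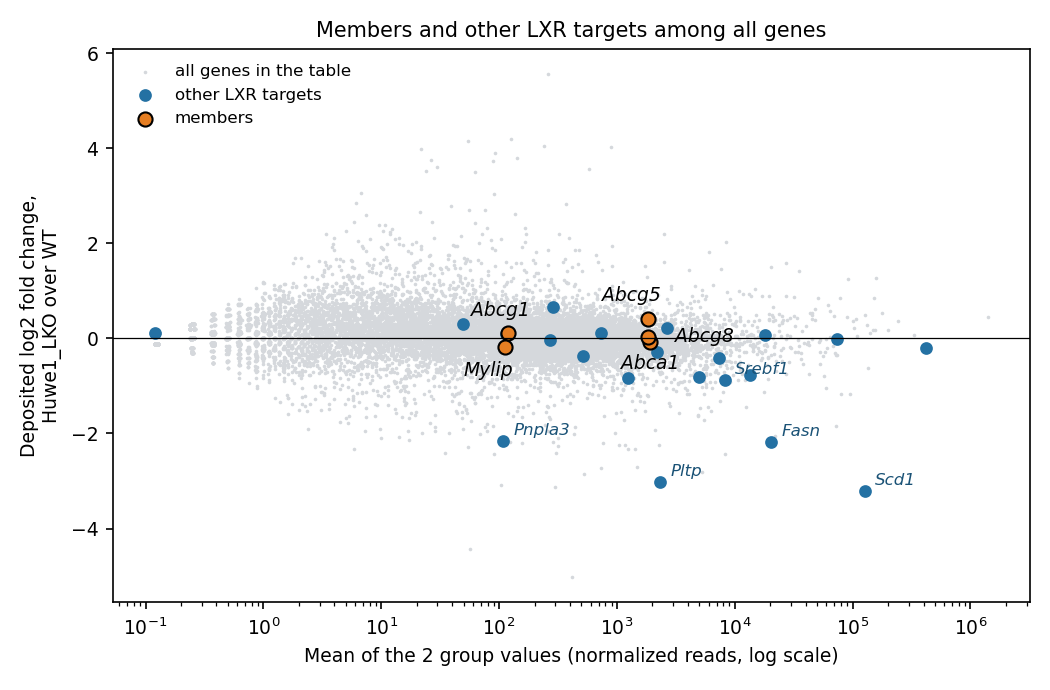
Mean of both group values (x axis, normalized reads, log scale) against the deposited log2 fold change of Huwe1_LKO over WT (y axis) for all 16640 genes (grey), the other LXR targets (blue) and the 5 members (orange). The members sit between -0.19 and 0.40, while Scd1, Pltp, Fasn and Pnpla3 lie at -2.16 or lower.

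Of 17 listed ABCA, ABCG and canalicular genes 15 were in the table, and 1 fell and 0 rose in the authors' DESeq2 result, also at an unadjusted p under 0.05, with a median of -0.15 on the log2 scale. Of all genes 9.97% were called, so 1 of 15 is near the background. The 1 was Abcb11, the bile salt export pump, which fell to 3450 in Huwe1_LKO, against 6225 in WT, in the deposited table (adjusted p = 0.000901). Bile salts that this pump secretes take up the sterols released by ABCG5 and ABCG8.

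Partners of sterol efflux moved both ways. Of 19 genes of sterol handling and HDL, 2 rose and 4 fell by the authors' DESeq2 test, beside 4.41% and 5.56% of all genes. The deposited median of the 19 was 0.03 on the log2 scale. Apoa1, whose product accepts cholesterol from ABCA1, rose to 210440 in Huwe1_LKO, against 146303 in WT, in the deposited table (adjusted p = 0.0152). Apoa2, the second protein of HDL, fell by 0.63 (adjusted p = 0.0392), Lipa, the lysosomal lipase that frees cholesterol, by 0.93 (adjusted p = 2.27e-07), and Cav1, the gene of caveolin-1, by 1.36 (adjusted p = 0.0352), as deposited log2 values. When centred on the most abundant eighth, Apoa2 and Cav1 lost their calls (adjusted p = 0.085 and 0.0507), and Apoa2 also with the trend removed (adjusted p = 0.0848). Lcat, which esterifies HDL cholesterol, was not called in the deposited table (0.31, adjusted p = 0.0546) but passed as higher under both (adjusted p = 0.0081 and 0.0122). The sterol transfer genes Gramd1a, which rose by 0.62, and Osbp, which fell by 0.41, also passed in the deposited table (adjusted p = 0.000944 and 0.000311). Scarb1, the HDL receptor that brings cholesterol back into the liver, had a deposited value of 2187 in Huwe1_LKO and 2221 in WT and was not called (adjusted p = 0.981).

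Of 10 genes of MYLIP substrates, E2 partners and related regulators, 1 rose and 1 fell by the authors' DESeq2 test, with a deposited median log2 fold change of -0.09. Of all genes 4.41% rose and 5.56% fell, and with 10 genes 1 call each way says little about the list. The MYLIP substrates Vldlr (-0.36) and Lrp8 (0.14, with deposited values under 3 in both groups), were not called. Usp2, whose product is known from cultured cells to counter MYLIP, rose to 1577 in Huwe1_LKO, against 697 in WT, in the deposited table (adjusted p = 0.00626). None of the E2 enzyme genes Ube2d1, Ube2d2a and Ube2d3 was called, with deposited log2 fold changes of -0.18, -0.06 and -0.11.

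Among 9 genes of factors known to act on the Abcg5-Abcg8 pair or on sterol transport, 1 rose and 0 fell in the authors' DESeq2 result, with a median of 0.15 on the log2 scale. At an unadjusted p under 0.05 these would be 3 higher and 0 lower, beside 20.5% of all genes in either direction. Of all genes 9.97% were called, so 1 of 9 is near the background. Hnf4a, a hepatocyte factor that binds the shared promoter, rose to 11654 in Huwe1_LKO, against 8990 in WT, in the deposited table (log2 fold change 0.37, adjusted p = 0.0318). The GATA factor genes Gata4 (0.05) and Gata6 (0.34), the LRH-1 gene Nr5a2 (0.00) and Foxo1 (0.50, adjusted p = 0.102) were not called, as deposited log2 fold changes. Foxo1 passed as higher when centred on the most abundant eighth (adjusted p = 0.0411), and Nr1h4, the FXR gene, with the trend removed (adjusted p = 0.0341).

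Abca1 and Abcg1 are known to be repressed by miR-33, which is encoded within Srebf2, the gene of SREBP-2. The mature 5p strand of mouse miR-33 (chromosome 15, RefSeq) is given with its seed, bases 2 to 8, in capitals, followed by the seed matches found in the longest annotated 3′ untranslated region of each member (GENCODE, GRCm38), with the match in capitals.

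mmu-miR-33-5p: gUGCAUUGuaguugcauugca
Abca1 match 1: acactattCAATGCAatgcactt
Abca1 match 2: attcaatgCAATGCActtcaatg
Abca1 match 3: atgcacttCAATGCAacgagaac
Abcg1 match 1: acgcaacgCAATGCAacgcaatg
Abcg1 match 2: atgcaacgCAATGCAgacagtgc

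Abca1 held 3 matches and Abcg1 held 2, and Abcg5, Abcg8 and Mylip held none. The first pair of Abca1 matches overlap. Of 16262 measured genes with such a region, 7.32% held at least 1 match and 0.0799% (13 genes) at least 3. Among the 3293 regions of 2000 to 4000 bases, the range that holds those of Abca1 and Abcg1, these shares were 14.0% and 0.152%. The miRNA itself was not measured here. Its host Srebf2 had a deposited value of 1029 in Huwe1_LKO and 930 in WT and was not called (log2 fold change 0.15, adjusted p = 0.804).

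Abca1 and Abcg1 are also active in macrophages and endothelial cells, so the markers of other cells were read beside them. None of 10 Kupffer cell and macrophage markers was called in the authors' DESeq2 result, nor had any an unadjusted p under 0.05, and their summed deposited values were 3602 in Huwe1_LKO and 3027 in WT, with 9 of 10 log2 fold changes above 0. None of 6 markers of lipid-associated macrophages was called in the deposited table, with sums of 1934 in Huwe1_LKO and 1200 in WT. Most of that gap lay in 1 gene, Spp1, with a deposited value of 1410 in Huwe1_LKO and 722 in WT. Of the 6 log2 fold changes 5 were above 0, and that of Gpnmb was below (-0.71). None of 6 sinusoidal endothelial markers was called, with deposited sums of 2064 in Huwe1_LKO and 1991 in WT. At an unadjusted p under 0.05, DESeq2 gave 1 marker of lipid-associated macrophages, Spp1, and 0 endothelial ones. No stellate, cholangiocyte or lymphocyte marker was called either, at an adjusted or unadjusted p under 0.05. Of 5 neutrophil markers, 2 were higher in the deposited table, S100a9 and Retnlg, beside 4.41% of all genes. The markers S100a8 (adjusted p = 0.0504), Cxcr2 (log2 fold change 0.44) and Ly6g (-0.58) were not called. Levels were low for Ly6g (5.02 in Huwe1_LKO, 7.52 in WT) and for Retnlg (11.3 in Huwe1_LKO, 3.78 in WT). Retnlg lost its call when centred on the median of all genes (adjusted p = 0.052) and with the trend removed (adjusted p = 0.0945). S100a8 passed as higher when centred on the most abundant eighth (adjusted p = 0.0333). Of 8 hepatocyte markers, all abundant in the deposited table, Serpina1c was called higher (0.37) and 7 were not called. Among genes with a mean value of 100 or more 15.0% were called, so 1 of 8 is near the background. The deposited log2 fold changes of 5 markers were above 0 and of 3 below, the lowest that of Tat (-0.48). Alb, the albumin gene, was not called in the deposited table (adjusted p = 0.0631) and passed as higher when centred on the most abundant eighth and with the trend removed (adjusted p = 0.0188 and 0.0107). The part of other cells in the values of the members was not tested.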

How the data were processed

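RNA of whole livers from 4 Huwe1_LKO and 4 WT mice was sequenced. The submitters' processing notes name the build mm10 and DESeq2, and the sources used here do not give its version, the aligner or the counting step. In the 1 table the authors deposited, each gene has 1 normalized signal for each group, per the file headers, summing to 17533080 for Huwe1_LKO and 17347886 for WT. Its log2 fold change column equals the log2 ratio of the deposited group values. Its deposited p-value columns hold unadjusted and adjusted p, and the adjusted p differs by at most 1.74e-06 from Benjamini-Hochberg values over the 16640 genes. The lowest deposited value was 0.115 and 707 genes with a mean under 0.2 had log2 fold changes of at most 0.12 in size, and whether folds of low genes were shrunken is not stated. All members lie far above that range.

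The planned fit per liver could not be made from group values, so calls are the authors' own. Standard errors are the size of the log2 fold change over the normal score of the deposited p, which assumes a Wald test, and 95% intervals follow from them. Centred values were tested with these errors. That step was run on simulated data whose errors were normal and equal for all genes. The simulation checks the arithmetic only, since the implied errors of the real genes differ widely. Named genes are the members, called genes of the pathway lists (some are not reported here), a few fixed receptors and substrates, the 2 genes nearest each member in both group values (mean of 10 or more) and the nearest measured neighbour on each side. Other uncalled genes with values, the upstream element and the miRNA matches were chosen after values were seen. Members and lists were chosen with earlier results of these data known. Of 16640 Entrez IDs, 16608 were found in RefSeq GRCm38.p6, the assembly also called mm10. RefSeq upstream windows were found for Abca1, Abcg5, Abcg8 and Mylip, and not used for Abcg1. Alternatives were other adjustments, thresholds and centres. The tools were scipy 1.17.1, pandas 2.3.3, numpy 2.4.6 and matplotlib 3.10.9 under Python 3.11.15.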

Additional observations from a re-analysis of the deposited data

How the results depend on the processing

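The counts, directions and values of the members and lists were recomputed under 7 alternatives. Of 168 comparisons, 135 kept their side of the threshold and direction, or for counts stayed within 1.5 times. Alternatives that changed only the adjustment or the threshold left every log2 fold change as it was, so direction could not change under them. The tally therefore holds in part by construction. Centred on the most abundant eighth of genes or freed of the length and level trend, Abcg5 had log2 fold changes of 0.48 and 0.52 and was called, so 1 member counted as higher. Abcg8 reversed to -0.00165 when centred on the median of all genes. Huwe1 kept -0.58 and lost its call under Bonferroni adjustment (adjusted p = 0.203). Bonferroni adjustment left 163 higher and 216 lower genes in all, 0 higher and 1 lower among LXR, RXR and cofactor genes, 2 lower for oxysterols, 4 lower among other LXR targets, 0 lower among other transporters, 0 higher and 1 lower for sterol handling, 0 and 0 around MYLIP, and 0 higher among Abcg5-Abcg8 regulators. At an adjusted p under 0.01 these were 414 higher and 561 lower genes in all, 1 higher cofactor gene, 1 higher and 2 lower for sterol handling, 0 lower around MYLIP and 0 higher regulators. Centred on the most abundant eighth, 1168 genes were higher in all, 1 LXR or RXR gene was lower, 2 sterol handling genes were lower and 2 regulators were higher. With the length and level trend removed, 1 LXR, RXR or cofactor gene was higher and 1 lower, 1 oxysterol gene was higher and 2 regulators were higher. The cause was not tested. No paired analysis was possible because the deposited table holds 1 value per gene and group, and for that reason no liver could be left out. The precision behind the deposited p limits Abcg1 and Mylip most, where folds under 1.78 and 1.52 would not have been called.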

Other observations

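The whole ABC family, with the 4 transporters and the listed genes among them, had 46 genes in the table, and it was chosen after its values were seen. Of the 46, the authors' DESeq2 test called 2 higher and 4 lower in Huwe1_LKO, beside 4.41% and 5.56% of all genes, and none of the 12 ABCA or 6 ABCG genes. The peroxisomal importer gene Abcd3 was lower in the deposited table, with 5197 in Huwe1_LKO and 8482 in WT (adjusted p = 0.00626). ABCD3 carries fatty acids and related acyl-CoAs into peroxisomes. Abce1, a ribosome recycling factor without a transport role, and Abcb11 were also lower, though Abce1 lost its call when centred on the most abundant eighth of genes (adjusted p = 0.107). Abcc9, the sulfonylurea receptor subunit of potassium channels, was higher at 566 in Huwe1_LKO and 388 in WT, and Abcc12 was higher at 11.8 in Huwe1_LKO and 4.02 in WT, as deposited values. The call of Abcc12 was lost once the trend with length and level was removed (adjusted p = 0.0644).

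The authors' own annotation gives a list of efflux genes that was not picked by hand. Of 23 genes annotated to cholesterol efflux, among them Abca1, Abcg1 and Abcg8, 0 were higher and 3 lower in the deposited DESeq2 result (0 and 4 at an unadjusted p under 0.05), with a median log2 fold change of -0.08. Of all genes 9.97% were called in either direction, and 20.5% had an unadjusted p under 0.05, so these counts are near the background. The 3 were the apolipoprotein genes Apoa4, Apoc2 and Apoa2, and none of them encodes a transporter. Apoc2 and Apoa2 lost their calls when centred on the most abundant eighth and with the length and level trend removed. Abcg5 carries no biological process term in that annotation.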
